A study of Mus musculus with 6 samples.

Results

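The genes described here are 47 genes of the cell cycle and DNA replication, chosen by name: 14 of DNA replication, 19 of mitosis and 14 of G1 control. They were measured in whole liver of untreated mice aged 3 months, in 3 TLR3-/- and 3 TLR3wt animals with 1 array per mouse. TLR3 senses double-stranded RNA inside endosomes. The mice were bred in-house under specific-pathogen-free conditions, and the strain is given as C57Bl/6 in the series design and on the label of each TLR3wt liver, while the labels of the TLR3-/- livers name no strain. The labels give neither the sex of the mice nor how the TLR3-/- allele was made.

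Each gene was read from a probe set that the array annotation assigns to exactly 1 gene symbol, and a gene with several such probe sets was read from the brightest one on average. Of 19938 genes with such a probe set, 45 were among the 47. Ccnb1 and Cdkn1a had none and were not analysed here. Values are log2 RMA signals that cannot fall below 5, the floor of the deposited table, so a gene at 5 has only an upper bound. Of the 45 genes, 17 stood at the floor on all 6 arrays and 28 were above it on at least 1 array. Among these 28, 8 were above the floor in TLR3wt livers alone and 0 in TLR3-/- livers alone. A gene that entered in this way had to differ in that direction, so counts over the 28 genes describe them and support no comparison.

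Most hepatocytes of an adult liver rest outside the cycle. During G1, the origin recognition complex together with CDC6 and CDT1 loads the MCM2-7 helicase on DNA, D-type cyclins with CDK4 or CDK6 phosphorylate the retinoblastoma protein, and E2F factors are released to transcribe the replication genes. The mitotic genes follow later, through the MuvB complex with B-MYB and FOXM1, which acts at CHR elements of their promoters, often beside CCAAT boxes bound by NF-Y.

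The promoters of the 3 replication genes with the clearest separation between the genotypes, and of the mitotic gene with the largest difference, are printed to show where such elements lie in them. Sequences are RefSeq's for GRCm38.p6 and run up to the base before the annotated gene, which for Mcm5 begins ahead of the start site used and leaves 209 bases. Capitals mark an E2F site (TTTGGCGC, TTTCCCGC, TTTGCCGC or TTTCGCGC), a CHR element (TTTGAA or TTTAAA) or a CCAAT box (CCAAT), each on either strand. The stretches are chr1:128359706-128359955, minus strand, for Mcm6; chr8:75109259-75109467, plus strand, for Mcm5; chr6:88898781-88899030, minus strand, for Mcm2; and chr4:118437344-118437593, minus strand, for Cdc20.
Mcm6: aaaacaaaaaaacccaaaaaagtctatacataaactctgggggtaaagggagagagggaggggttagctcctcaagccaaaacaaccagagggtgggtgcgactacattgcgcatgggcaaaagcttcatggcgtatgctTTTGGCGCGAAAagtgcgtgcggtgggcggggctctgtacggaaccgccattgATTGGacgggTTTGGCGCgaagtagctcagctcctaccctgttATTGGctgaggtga
Mcm5: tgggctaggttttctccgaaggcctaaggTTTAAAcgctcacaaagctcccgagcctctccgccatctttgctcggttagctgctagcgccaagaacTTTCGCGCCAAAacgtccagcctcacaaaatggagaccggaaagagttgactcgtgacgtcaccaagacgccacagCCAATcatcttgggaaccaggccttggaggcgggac
Mcm2: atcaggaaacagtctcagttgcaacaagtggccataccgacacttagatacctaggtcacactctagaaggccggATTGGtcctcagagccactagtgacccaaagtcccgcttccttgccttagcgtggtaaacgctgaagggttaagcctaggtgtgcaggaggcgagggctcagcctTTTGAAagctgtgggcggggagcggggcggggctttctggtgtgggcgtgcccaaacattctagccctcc
Cdc20: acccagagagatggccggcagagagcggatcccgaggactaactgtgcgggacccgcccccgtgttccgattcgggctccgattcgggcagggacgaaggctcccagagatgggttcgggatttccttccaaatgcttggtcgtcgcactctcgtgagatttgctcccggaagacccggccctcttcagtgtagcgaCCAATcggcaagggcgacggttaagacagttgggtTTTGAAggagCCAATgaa

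Mcm6 and Mcm5 each carried a pair of E2F sites on opposite strands that overlap each other, 110 to 99 bases before the start site in Mcm6 and 153 to 142 bases before it in Mcm5. Mcm6 had a further site at 47 to 40 bases. Mcm2 held no E2F site of these letters in its window, but a TTTGAA at 70 to 65 bases, and Cdc20 held a TTTGAA at 18 to 13 bases and CCAAT boxes at 53 and 8 bases before the start site. Of all 32851 promoter windows of 250 bases, 1.9% held an E2F site, 25.2% a CHR element and 33.8% a CCAAT box. Promoters were listed for 13 of the 14 replication genes, 15 of the 19 mitosis genes and 10 of the 14 G1 control genes, some with more than 1 start site. E2F sites were in 4 of 14 windows of replication genes (28.6%), those of Mcm5, Mcm6, Mcm7 and Cdc6, and a CCAAT box was in 9 of 14 (64.3%). Among mitosis genes, 11 of 16 windows (68.8%) held a CHR element and 14 of 16 (87.5%) a CCAAT box. The G1 control genes had a CHR element in 3 of 14 windows (21.4%) and a CCAAT box in 5 (35.7%). These are matches of letters, not measured binding.

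The arrays had 15081 to 15226 probe sets above the floor in TLR3-/- livers and 15157 to 15226 in TLR3wt livers, and correlations between arrays were 0.984 to 0.991 inside a genotype and 0.98 to 0.988 across genotypes. Tlr3 itself read 5 in each of the 6 livers, so its probe set gave no check of the genotype. Hepatocyte markers were above the floor on every array for 10 of 10 genes. The liver of TLR3wt replicate 3 stood apart among the genes described here: 27 of its 45 genes were above the floor, against 20 and 22 in TLR3wt replicates 1 and 2 and 17 to 19 in TLR3-/- livers. Results that rest on this liver are therefore given with and without it.

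None of the 28 genes above the floor on at least 1 array passed the test between the genotypes, and the rest of the 47 did not enter it. In limma's moderated test over all 16639 probe sets above the floor, 31 probe sets passed an adjusted p of 0.05 (0.186%; 0.0481% lower and 0.138% higher in TLR3-/- livers), and 0 of the 28 genes were among them, with 6 of the 28 at an unadjusted p under 0.05 (14.5% of all tested probe sets). The smallest adjusted p was 0.16, for Mcm6, whose TLR3-/- values were all at the floor. Those at an unadjusted p under 0.05 were Mcm2, Mcm5, Mcm6 and Ccnd2, lower in TLR3-/- livers, where 5.25% of all tested probe sets were, and Rb1 and Cdkn1b, higher, where 9.21% were. The groups did not overlap in 4 genes that were lower (7.04% of all tested probe sets) and in 3 that were higher (13.0%), against 20.1% of all tested probe sets in either direction. Over the 28 genes the median log2 difference, TLR3-/- minus TLR3wt, was -0.04, against 0.03 over all tested probe sets, and 20 were lower, as were 41.2% of all tested probe sets, and 8 higher. Among the 16 genes above the floor on all 6 arrays, 8 were lower and 8 higher, with a median of -0.01, against 0.04 over all 13809 such probe sets.

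**Figure D1:**
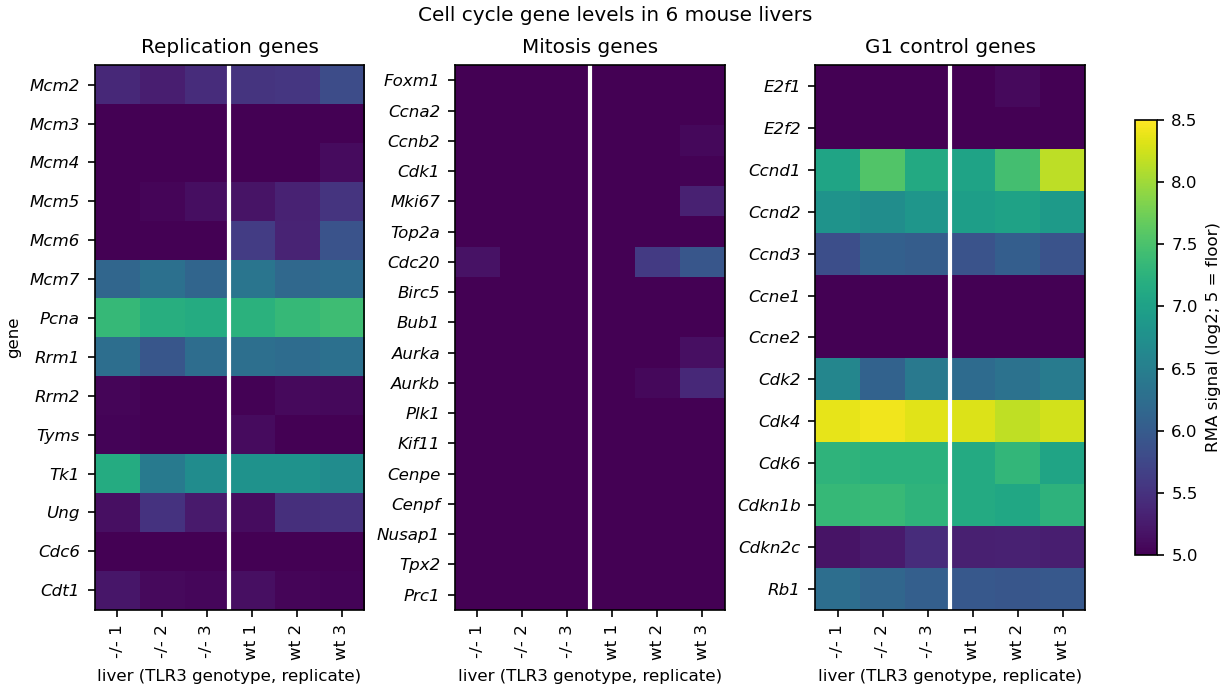
Log2 RMA signal of the 45 genes with a probe set, as colour from the floor of 5 to 8.5, in 3 TLR3-/- livers (left of the white line) and 3 TLR3wt livers, for replication, mitosis and G1 control genes. Colours compare livers within a gene, not genes with each other; the mitosis panel is almost wholly at the floor, with signal mainly in TLR3wt replicate 3.

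**Figure D2:**
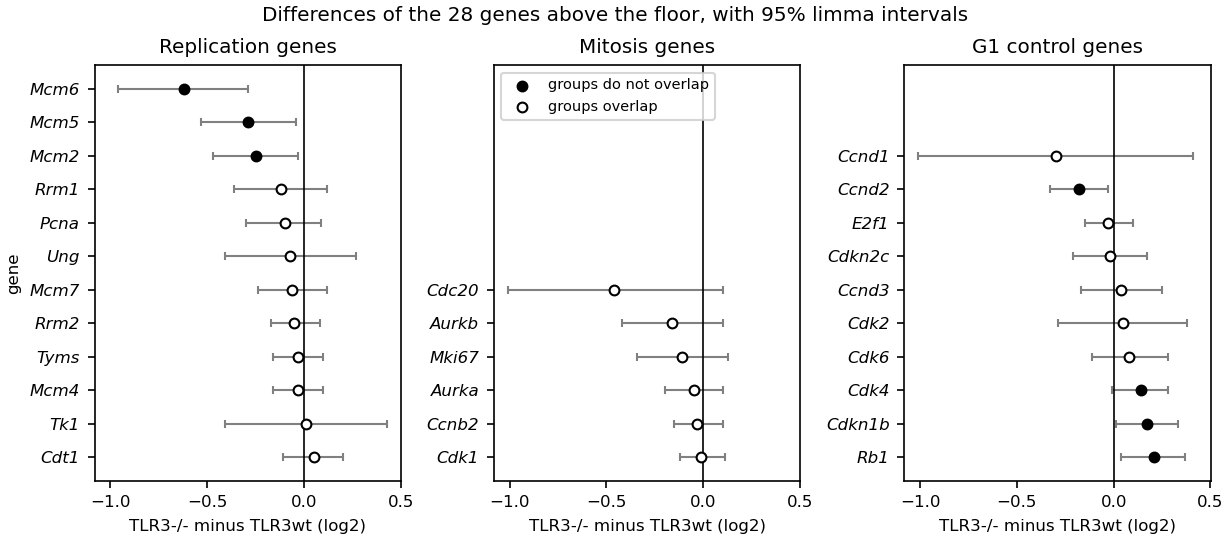
Log2 difference, TLR3-/- minus TLR3wt, of the 28 genes above the floor on at least 1 array, with 95% intervals from limma (3 livers per genotype). Filled points mark genes whose groups do not overlap; Mcm6, Mcm5, Mcm2 and Ccnd2 lie to the left of 0 and Rb1, Cdkn1b and Cdk4 to the right.

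Of the 12 replication genes above the floor, 3 were lower in every TLR3-/- liver than in any TLR3wt liver. Of all tested probe sets, 7.04% were apart in that direction. All 3 genes encode subunits of the MCM2-7 helicase. The helicase unwinds DNA ahead of the replication fork. Mcm6, the subunit with the largest difference, was at the floor of 5 in all 3 TLR3-/- livers and read 5.62, 5.35 and 5.90 in TLR3wt replicates 1 to 3. It was thus at least 1.54-fold lower in TLR3-/- livers, with a log2 difference of -0.62 ± 0.14 (SE; limma adjusted p = 0.16). That SE and p take the floor values as measured, though the floor hides any spread among the TLR3-/- livers. Mcm6 was the only member of the replication group that separated the genotypes with 1 of them at the floor in all its livers.

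Mcm5 read 5, 5.05 and 5.13 in TLR3-/- livers, against 5.18, 5.33 and 5.53 in TLR3wt livers. The difference was -0.29 ± 0.10 (SE; limma adjusted p = 0.283), and the lowest TLR3wt liver lay close above the highest TLR3-/- liver. Mcm2 read 5.40, 5.30 and 5.44 in TLR3-/- livers, against 5.53, 5.55 and 5.81 in TLR3wt livers, a difference of -0.25 ± 0.09 (SE; limma adjusted p = 0.301). In each of the 3 genes the highest value belonged to TLR3wt replicate 3. Without that liver the log2 differences were -0.48 for Mcm6, -0.19 for Mcm5 and -0.16 for Mcm2, with limma adjusted p = 0.163, 0.394 and 0.416. Mcm5 lies on chromosome 8, as does Tlr3, with 234 protein-coding genes between them in the RefSeq table. Cdt1, on the same chromosome, had a difference of 0.05 with overlapping groups (limma adjusted p = 0.782). Sequence linked to the Tlr3 allele and TLR3 itself cannot be told apart in this design.

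The remaining MCM genes did not separate the groups. Mcm7, another helicase subunit, read 6.15, 6.29 and 6.14 in TLR3-/- livers and 6.36, 6.18 and 6.22 in TLR3wt livers, with a difference of -0.06 and a 95% interval of -0.24 to 0.12. Mcm4 was above the floor only in TLR3wt replicate 3 (5.10), and Mcm3 was at the floor in all 6 livers. The mean over the 6 subunit genes, floor values included, was 5.26, 5.27 and 5.28 in TLR3-/- replicates 1 to 3 and 5.45, 5.40 and 5.59 in TLR3wt replicates 1 to 3. Of the 6 genes, 2, 3 and 3 were above the floor in those TLR3-/- livers, and 4, 4 and 5 in those TLR3wt livers. The floor thus sets much of the closeness of the TLR3-/- means. These means include Mcm2, Mcm5 and Mcm6, already described as apart, and add no separate evidence.

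**Figure D3:**
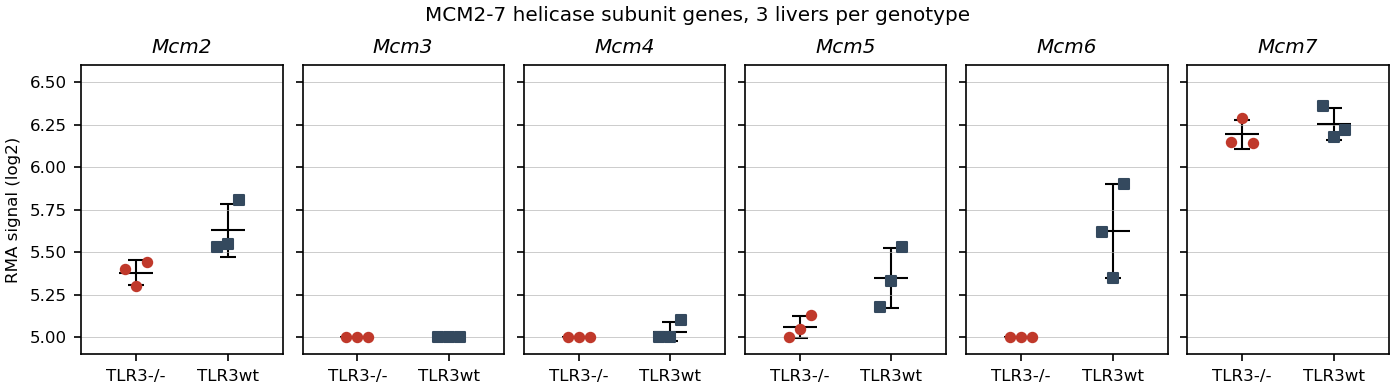
Log2 RMA signal of the 6 MCM2-7 subunit genes in each TLR3-/- liver (circles) and TLR3wt liver (squares), with mean and SD (n = 3 each). Mcm2, Mcm5 and Mcm6 do not overlap between the genotypes; Mcm3 and Mcm4 are at or near the floor of 5 and Mcm7 overlaps.

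Other replication genes overlapped between the genotypes. Pcna, the sliding clamp of DNA polymerases, read 7.35, 7.19 and 7.15 in TLR3-/- livers and 7.23, 7.35 and 7.41 in TLR3wt livers (difference -0.10, 95% interval -0.30 to 0.09). A second probe set assigned to Pcna gave a difference of -0.11. Tk1, thymidine kinase of the nucleotide salvage pathway, read 7.15, 6.44 and 6.70 in TLR3-/- livers and 6.78, 6.79 and 6.70 in TLR3wt livers. Its difference was 0.01 in that probe set and -0.06 in its other one, and in the first of these TLR3-/- replicate 1 was the highest and replicate 2 the lowest of all 6 livers.

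The enzymes that supply deoxynucleotides showed small differences. Rrm1, the large subunit of ribonucleotide reductase, was 6.15 ± 0.18 in TLR3-/- and 6.27 ± 0.03 in TLR3wt livers (SD, n = 3 each), with TLR3-/- replicate 2 (5.94) below the other 5 livers. The Rrm1 difference was -0.12, and -0.02 without that liver. Its small subunit Rrm2 and the thymidylate synthase gene Tyms did not exceed 5.10 in any liver. The uracil-DNA glycosylase gene Ung ranged from 5.14 to 5.51 in TLR3-/- livers and from 5.12 to 5.50 in TLR3wt livers. Of the licensing factors, Cdc6 was at the floor in all livers and Cdt1 read 5.21, 5.09 and 5.06 in TLR3-/- livers and 5.14, 5.05 and 5.03 in TLR3wt livers. In all, 10 of the 12 replication genes above the floor had lower means in TLR3-/- livers and 2 higher, with a median of -0.06, or -0.05 with the floor genes at 0. Of all tested probe sets 41.2% were lower, with a median of 0.03. Mcm4 and Mcm6 were above the floor in TLR3wt livers alone and could only be lower, so the count supports no comparison.

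Genes of mitosis were mostly not measurable in either genotype. Of 18 genes with a probe set, 12 were at the floor on all 6 arrays: the cyclin gene Ccna2, the transcription factor gene Foxm1, the topoisomerase gene Top2a, the survivin gene Birc5, the checkpoint kinase gene Bub1, the polo-like kinase gene Plk1, the spindle motor gene Kif11, the kinetochore genes Cenpe and Cenpf, and the spindle genes Nusap1, Tpx2 and Prc1. A value at the floor does not show that a transcript is absent.

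The 6 other mitosis genes were above the floor mainly in TLR3wt replicate 3. Cdc20, an activator of the anaphase-promoting complex, read 5.17, 5 and 5 in TLR3-/- livers and 5, 5.60 and 5.94 in TLR3wt livers. The groups overlapped, since TLR3wt replicate 1 was at the floor, and the difference of -0.46 ± 0.23 did not pass (SE; limma adjusted p = 0.419). It was -0.24 without TLR3wt replicate 3 and -0.71 without TLR3wt replicate 1. The Aurora kinase gene Aurkb was at the floor in all TLR3-/- livers and read 5, 5.08 and 5.40 in TLR3wt livers. Its difference was -0.16, and -0.04 without TLR3wt replicate 3.

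Mki67, the gene of the proliferation antigen Ki-67, was above the floor in TLR3wt replicate 3 alone, at 5.32. The same held for the kinase gene Aurka (5.15), the cyclin gene Ccnb2 (5.08) and the cyclin-dependent kinase gene Cdk1 (5.02). Counted by liver, 1, 0 and 0 of the 18 mitosis genes were above the floor in TLR3-/- replicates 1 to 3, and 0, 2 and 6 in TLR3wt replicates 1 to 3. The median difference of the 6 genes was -0.08, and 0.00 with the floor genes at 0. Of the 6, 5 were above the floor in TLR3wt livers alone and could only be lower, so the sign of the first median was fixed. With 12 of the 18 genes at the floor, the second had to be 0.00. No liver other than TLR3wt replicate 3 held more than 2 measurable mitosis genes.

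Genes of G1 control were measurable in larger part. Of the 10 above the floor, 3 were higher in every TLR3-/- liver than in any TLR3wt liver, and 1 was lower. Of all tested probe sets, 13.0% were apart and higher and 7.04% apart and lower. Rb1, which encodes the retinoblastoma protein that holds E2F factors in check, read 6.27, 6.15 and 6.06 in TLR3-/- livers, against 5.96, 5.93 and 5.97 in TLR3wt livers. The difference was 0.21 ± 0.07, a ratio of 1.16 (SE; limma adjusted p = 0.261). Cdkn1b, the gene of the CDK inhibitor p27, read 7.35, 7.36 and 7.27 in TLR3-/- livers, against 7.14, 7.08 and 7.26 in TLR3wt livers. That difference was 0.17 ± 0.07 (SE; limma adjusted p = 0.327), with TLR3wt replicate 3 next to the lowest TLR3-/- liver. A second Cdkn1b probe set lay nearer the floor, at 5.43, 5.32 and 5.06 in TLR3-/- livers and 5.22, 5 and 5 in TLR3wt livers, a difference of 0.20 with overlapping groups.

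The cyclin-dependent kinase gene Cdk4 read 8.37, 8.42 and 8.34 in TLR3-/- livers, against 8.31, 8.16 and 8.26 in TLR3wt livers. All TLR3-/- livers were higher, by 0.14 ± 0.06 on average (SE; limma adjusted p = 0.372), and the 95% interval of -0.01 to 0.28 reached 0. Ccnd2, one of its cyclin partners, went the other way, at 6.80, 6.71 and 6.84 in TLR3-/- livers and 6.96, 7.02 and 6.91 in TLR3wt livers, a difference of -0.18 ± 0.06 (SE; limma adjusted p = 0.281).

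Ccnd1, the D-type cyclin best known from liver regeneration, varied most among mice. It read 7.05, 7.55 and 7.13 in TLR3-/- livers and 7.03, 7.45 and 8.15 in TLR3wt livers. TLR3wt replicate 3 was the highest of the 6, and TLR3wt replicate 1 the lowest, so the difference of -0.30 had a 95% interval of -1.01 to 0.41, and it was -0.00 without TLR3wt replicate 3. Of the other G1 genes, Ccnd3, Cdk2, Cdk6 and the inhibitor gene Cdkn2c had differences of 0.04, 0.05, 0.08 and -0.02 with overlapping groups. Cdk6 read 7.27, 7.24 and 7.24 in TLR3-/- livers and 7.14, 7.32 and 7.04 in TLR3wt livers. E2f1 was above the floor in TLR3wt replicate 2 alone (5.09), and E2f2, Ccne1 and Ccne2, which act at entry into S phase, were at the floor in all livers. The 10 measurable G1 genes had a median difference of 0.04, with 6 higher and 4 lower.

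**Figure D4:**
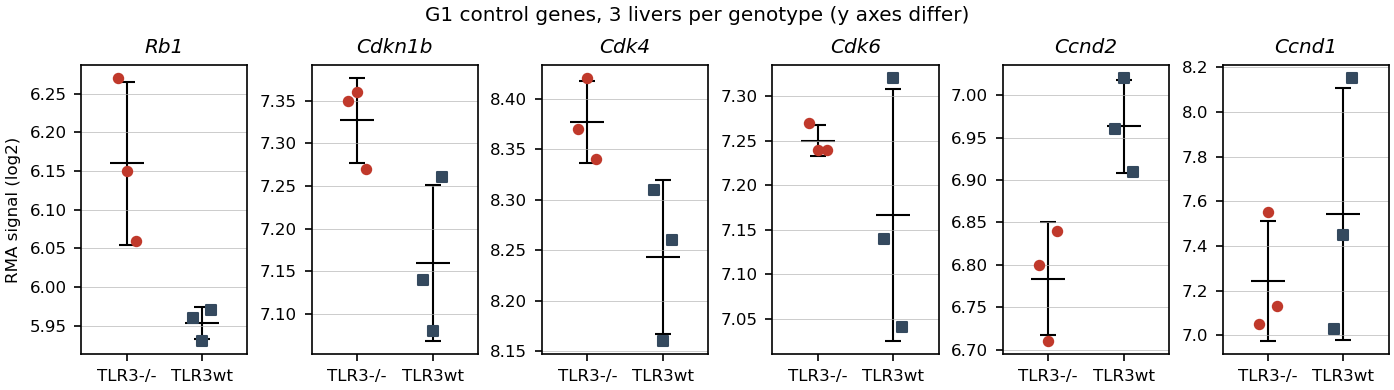
Log2 RMA signal of 6 G1 control genes in each TLR3-/- liver (circles) and TLR3wt liver (squares), with mean and SD (n = 3 each); each panel has its own y axis. Rb1, Cdkn1b and Cdk4 are higher and Ccnd2 lower in all TLR3-/- livers, while Cdk6 and Ccnd1 overlap, with TLR3wt replicate 3 at 8.15 for Ccnd1.

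Further replication genes had means in both directions. Of 41 measurable genes in a list of 64, 22 had higher and 19 lower means in TLR3-/- livers (median 0.03), and 0 passed limma's adjusted p, with 4 at an unadjusted p under 0.05, all higher, near the 9.21% of all tested probe sets that were higher at that p. The 3 with the smallest p were Orc5, Orc3 and Pold4, a small subunit of DNA polymerase delta. Orc5 read 6.40, 6.47 and 6.30 in TLR3-/- livers, against 6.07, 5.86 and 6.02 in TLR3wt livers, a difference of 0.40 ± 0.08 (SE; limma adjusted p = 0.139). Orc3 read 6.91, 6.96 and 6.97 in TLR3-/- livers, against 6.73, 6.55 and 6.49 in TLR3wt livers, a difference of 0.35 ± 0.08 (SE; limma adjusted p = 0.154). Both encode subunits of the origin recognition complex, and in both every TLR3-/- liver lay above every TLR3wt liver. Pold4 read 6.48, 6.45 and 6.49 in TLR3-/- livers, against 6.24, 6.01 and 6.16 in TLR3wt livers, a difference of 0.33 ± 0.07 (SE; limma adjusted p = 0.156).

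The remaining subunit genes of the origin recognition complex were looked up after the values of Orc3 and Orc5 were seen. Orc4 was also higher in every TLR3-/- liver, with a difference of 0.17 (limma adjusted p = 0.258). Of all tested probe sets, 13.0% were apart and higher. Orc6 and Orc2 had differences of 0.09 and 0.06 with overlapping groups, and Orc1 was at the floor in all livers.

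**Figure D5:**
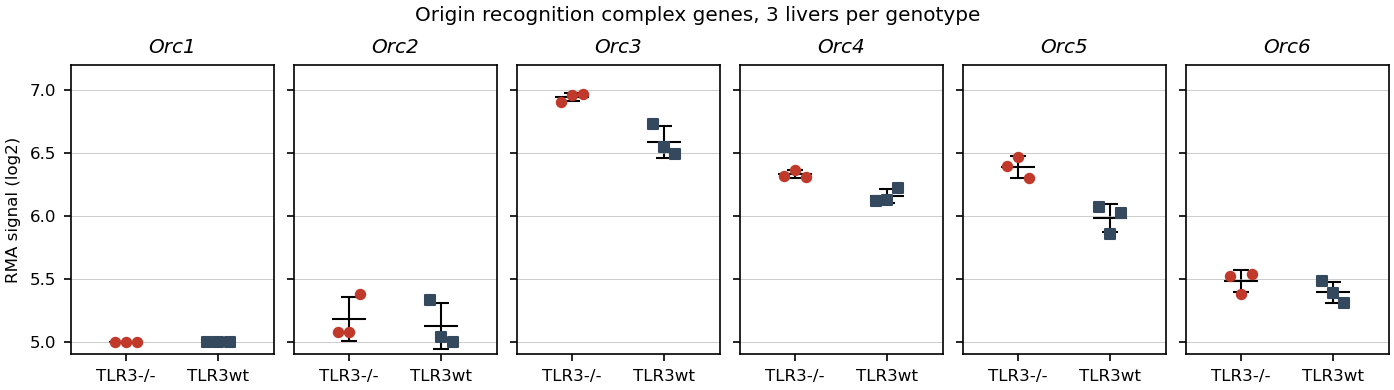
Log2 RMA signal of the 6 genes of the origin recognition complex in each TLR3-/- liver (circles) and TLR3wt liver (squares), with mean and SD (n = 3 each). Orc3, Orc4 and Orc5 are higher in all TLR3-/- livers than in any TLR3wt liver, as are 13.0% of all tested probe sets. Orc2 and Orc6 overlap and Orc1 is at the floor of 5.

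Further mitosis genes were also mostly at the floor. Of 107 genes with a probe set, 70 were at the floor on all arrays, and of the other 37, 20 had higher and 17 lower means (median 0.02). None passed limma's adjusted p, with 10 at an unadjusted p under 0.05, 5 in each direction, against 9.21% of all tested probe sets higher and 5.25% lower. Mad2l1, a spindle checkpoint gene, read 5.11, 5 and 5.21 in TLR3-/- livers, against 5.56, 5.71 and 5.84 in TLR3wt livers, a difference of -0.60 ± 0.09 (SE; limma adjusted p = 0.103). This was the smallest adjusted p of the 4 further lists, and the groups were well apart. Ube2s, a ubiquitin-conjugating enzyme of the anaphase-promoting complex, had a difference of -0.30, and the centromere protein gene Cenpb one of 0.25 (limma adjusted p = 0.187 and 0.185).

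Further G1 genes split in a similar way. Of 50 measurable genes, 31 had higher and 19 lower means (median 0.02), with 0 past limma's adjusted p and 9 at an unadjusted p under 0.05, 6 higher and 3 lower, near the 14.5% of all tested probe sets. Mnat1, an assembly factor of the CDK-activating kinase, read 5.57, 5.43 and 5.61 in TLR3-/- livers, against 5.21, 5 and 5.18 in TLR3wt livers, a difference of 0.41 ± 0.08 (SE; limma adjusted p = 0.144). Btg2 and Tob1, related antiproliferative genes, were lower. Btg2 was at the floor in all TLR3-/- livers and read 5.44, 5.19 and 5.71 in TLR3wt livers, at least 1.36-fold lower (limma adjusted p = 0.219), and Tob1 read 9.67, 9.63 and 9.59 in TLR3-/- livers, against 10.13, 9.96 and 9.79 in TLR3wt livers (limma adjusted p = 0.212).

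Macrophage markers had lower means in TLR3-/- livers beside the MCM genes. Of 16 markers, 15 were lower (median -0.79), 15 were above the floor on all 6 arrays, and 0 passed limma's adjusted p, with 14 lower at an unadjusted p under 0.05, as were 5.25% of all tested probe sets. Their summed linear signal was 1370 to 2090 in TLR3-/- livers and 2530 to 3470 in TLR3wt livers. The Kupffer cell markers Clec4f and Cd5l had differences of -0.69 and -0.73. Within TLR3wt, replicate 2 had the highest marker sum (3470) and the lowest Mcm6 (5.35). Replicate 1, with the lowest sum of that genotype (2530), had its lowest Mcm2 (5.53) and Mcm5 (5.18). Replicate 3, with a sum of 3030, had the highest Mcm2, Mcm5 and Mcm6. In TLR3-/- replicates 1 to 3 the sums were 1880, 1370 and 2090. Mcm2 followed the same order there, at 5.40, 5.30 and 5.44. Mcm5 read 5, 5.05 and 5.13 in these livers, and Mcm6 was at the floor. In RNA of whole liver, fewer cells of a type and less RNA per cell cannot be told apart, and the part of macrophages in the MCM values was not tested.

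Markers of other dividing or blood-borne cells were less often measurable. All 12 markers of neutrophils and marrow precursors were at the floor on all 6 arrays. Of 14 lymphocyte markers 11 were at the floor, and the pan-leukocyte gene Ptprc read 5.59, 5.23 and 5.29 in TLR3-/- livers, against 5.84, 6.09 and 6.27 in TLR3wt livers. Of 6 erythroid markers 3 were measurable and had lower means, with summed linear signals of 733 to 829 in TLR3-/- livers and 893 to 1100 in TLR3wt livers. The heme synthesis gene Alas2, the brightest of them, had a difference of -0.22 with overlapping groups (8.91 to 9.06 in TLR3-/- and 8.98 to 9.39 in TLR3wt livers). The transferrin receptor gene Tfrc, which dividing cells of many kinds also express, had one of -1.17 and is part of those sums. The part of these cells in the values above was not tested. Endothelial markers split, with 8 higher and 4 lower, as did stellate and matrix markers, with 3 higher and 6 lower, and 7 of 8 cholangiocyte markers were at the floor. Hepatocyte markers had a median difference of -0.01.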

How the data were processed

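RNA of 6 livers was hybridised to 1 array each. The deposited values are log2 signals that the authors made with Affymetrix Expression Console and RMA, both named in the submitters' processing notes. The lowest value is exactly 5 on every array, for a reason the labels do not state. The table holds 35557 probe sets, 21789 with 1 gene symbol. The array annotation supplied the symbols, updated by gene identifier to the RefSeq table of GRCm38.p6 (99.6% matched). Genotype and replicate came from the sample titles, and the design names 3 mice per group.

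Probe sets that never exceeded the floor were dropped. The remaining 16639 entered limma 3.58.1 under R 4.3.3 (lmFit and eBayes, two-sided, group as the only term, Benjamini-Hochberg over all tested probe sets, threshold 0.05). The procedure was also run on simulated data with changes placed only in probe sets well above the floor, which leaves genes near the floor uncovered. The number of arrays and the floor limit the precision. A gene at the floor in all livers of a genotype gives a bound, from the other genotype's mean against 5. Lists are described by counts and medians without a test. The genes and the lists were chosen with earlier results of these data known. Any of the 47 may be named, of each further pathway list the 3 with the smallest p, and of a marker list the 2 brightest. Promoter motifs were searched in 250 bases before the start site. Alternatives covered the floor filter, normalization, array weights, a variance trend, probe set choice, a replicate block and leaving out each mouse.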

Additional observations from a re-analysis of the deposited data

How the results depend on the processing

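The count of 0 passing cell cycle genes held under every alternative run, while the count over all probe sets, 31 as reported, depended on the setting. It was 0 with all probe sets tested (2018 at an unadjusted p under 0.05), 18 with those above the floor on all arrays, 9 after quantile normalization again, 14 with centred arrays, 1 with 1-symbol probe sets alone and 0 to 13 when 1 mouse was left out. It was 35 with array weights and 36 with an intensity trend in the prior. Values of 0 came without TLR3-/- replicate 3, TLR3wt replicate 1 or TLR3wt replicate 2 (2203, 2577 and 1771 at an unadjusted p under 0.05), values of 1 without TLR3-/- replicate 1 or 2, and 13 without TLR3wt replicate 3. With a replicate block 4 probe sets and 0 of the cell cycle genes passed. Same-numbered mice shared only a number, with correlations of their deviations of 0.048, -0.012 and -0.063. The G1 median ranged from 0.00 to 0.09 without 1 mouse, the highest value coming without TLR3wt replicate 2. Without TLR3wt replicate 3 the medians were -0.06 for replication, -0.14 for mitosis (2 genes above the floor) and 0.01 for G1 control. The adjusted p of Mcm6 ranged from 0.125 to 0.481. The medians with floor genes at 0 (-0.05 for replication, 0.00 for mitosis and 0.00 for G1 control) were added after the data were seen.

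Of 402 values of the 28 genes under alternatives, 390 kept their direction. That count is no measure of robustness, since many of the values could not turn. The probe set filters, the variance trend and the replicate block leave a difference as it was. The 8 genes above the floor in TLR3wt livers alone cannot turn when 1 mouse is left out. Tk1 turned to -0.04 with array weights, -0.02 with centred arrays, -0.03 with the mean over its probe sets, -0.03 after quantile normalization and -0.18 to 0.17 without 1 mouse. Without 1 mouse, the ranges that crossed or touched 0 were -0.19 to 0.01 for Ung, -0.07 to 0.18 for Cdk2, -0.09 to 0.03 for Cdkn2c, -0.01 to 0.11 for Ccnd3 and -0.05 to 0.00 for Tyms, and at the nearest Ccnd1 came to -0.00 and Cdt1 to 0.00. None of these genes was past the threshold in any fit. The floor limits the mitosis genes most, since signals below 5 have no measured order.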

Other observations

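Genes of p53 and its targets, which include brakes on the cycle, differed in both directions. The p53 gene itself, Trp53, had no probe set with 1 gene symbol. Of 22 measurable genes in a list of 30, 17 had higher and 5 lower means in TLR3-/- livers. The median was 0.08, against 0.03 over all tested probe sets, of which 41.2% had lower means. None passed limma's adjusted p, with 4 at an unadjusted p under 0.05, 2 in each direction. At that p 9.21% of all tested probe sets were higher and 5.25% lower. The polo-like kinase gene Plk3 had the largest difference, at 7.50, 6.29 and 6.62 in TLR3-/- livers and 8.77, 8.81 and 7.51 in TLR3wt livers (-1.56 ± 0.45, SE; limma adjusted p = 0.219). Its groups only just failed to overlap, with TLR3-/- replicate 1 beside TLR3wt replicate 3. Plk2, another kinase of the family, went the other way, at 6.52, 6.97 and 6.67 in TLR3-/- livers and 5.46, 6.19 and 6.31 in TLR3wt livers (0.73 ± 0.24, SE; limma adjusted p = 0.261). Without TLR3wt replicate 1, the lowest liver, the Plk2 difference was 0.47. Trp53inp1, a stress-induced partner of p53, was lower by 0.55 on the log2 scale, with every TLR3-/- liver below every TLR3wt liver (limma adjusted p = 0.172).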
